A study of Mus musculus with 8 samples.

Results

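A group of 60 genes was at least 2-fold higher than control in mouse embryonic fibroblasts (MEFs) expressing *EZHIP* and in MEFs without EED, and stayed within 2-fold of control in MEFs expressing H3.3 K27M. The genes were chosen by these values alone. For each gene the log2 of a group's mean plus 1 was compared with the same quantity in control, and a gene was kept when the difference was at least 1 in EZHIP cells, at least 1 in EED-null cells and between -1 and 1 in K27M cells. Of the 875 genes in the deposited table, 69 met these limits. From them, 9 that belong to families such as transporters, matrix proteins, *Hox*, *Zic* and forkhead genes, or that are *Sox2*, *Otx2* or *Nkx6-1*, were left out, which gave the 60. For comparison, 257 of the 875 genes were at least 2-fold higher in all 3 lines. Because the limits used each of the 3 comparisons with control, those comparisons are described here and not tested.

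RNA was sequenced from 8 libraries of MEFs, 2 for each of 4 groups. Control cells were the parental *EED*-floxed MEFs, taken at mid-gestation, in which Cre can cut out a part of *EED*. EZHIP cells stably expressed human *EZHIP* and K27M cells stably expressed H3.3 K27M, each from a lentivirus with the EF1a promoter, after puromycin selection. Against the parental control, transduction and selection thus cannot be told apart from the transgene. EED-null cells were 1 clone of the floxed MEFs, picked after a Cre lentivirus, so the properties of that clone and the loss of EED cannot be told apart. All 4 groups derive from MEFs with the floxed allele, which Cre was used to cut in the EED-null clone. The labels do not say whether the 2 libraries of a group came from separate cultures, so the spread between them may be technical. *Eed* itself is not in the table, and its loss was not checked.

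PRC2 is the enzyme complex that methylates lysine 27 of histone H3, and the trimethylated form, H3K27me3, keeps developmental genes silent in cells where they are not needed. EED is a core subunit that binds H3K27me3 and stimulates the enzyme, and without it the complex is not active. EZHIP and H3 K27M both occupy the active site of the catalytic subunit EZH2. In cells with either inhibitor H3K27me3 is lost from broad domains but can remain at CpG islands, stretches of DNA rich in the dinucleotide CG that cover many gene starts.

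The starts of 4 of the genes are shown because they differ in CG content and in expression in control cells, and were picked after their values had been seen. They are the 250 bases before a RefSeq start on build GRCm38.p6, read 5′ to 3′ on the gene's strand, with each CG in capitals. *Six3* (chr17:85620584-85620833, plus strand, 10 CG) and *Lhx8* (chr3:154330561-154330810, minus strand, 4 CG) were at or near 0 in control cells. *Wnt6* (chr1:74771642-74771891, plus strand, 28 CG) was moderately expressed there, and *Igfbp2* (chr1:72824230-72824479, plus strand, 14 CG) was well expressed.
Six3: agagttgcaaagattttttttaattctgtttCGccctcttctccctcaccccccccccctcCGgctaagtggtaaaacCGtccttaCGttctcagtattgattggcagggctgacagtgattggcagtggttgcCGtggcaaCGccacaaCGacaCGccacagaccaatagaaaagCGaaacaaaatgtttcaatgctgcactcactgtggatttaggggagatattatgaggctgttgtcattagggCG
Wnt6: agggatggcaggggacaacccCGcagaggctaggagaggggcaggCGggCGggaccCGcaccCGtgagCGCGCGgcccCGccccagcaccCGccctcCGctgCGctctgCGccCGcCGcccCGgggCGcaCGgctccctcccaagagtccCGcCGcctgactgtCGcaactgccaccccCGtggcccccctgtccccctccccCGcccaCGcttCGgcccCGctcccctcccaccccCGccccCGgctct
Igfbp2: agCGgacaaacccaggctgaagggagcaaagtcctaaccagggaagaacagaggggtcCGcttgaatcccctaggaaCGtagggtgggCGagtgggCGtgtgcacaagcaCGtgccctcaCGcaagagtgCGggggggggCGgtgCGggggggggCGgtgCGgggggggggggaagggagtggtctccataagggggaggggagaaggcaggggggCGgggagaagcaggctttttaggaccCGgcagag
Lhx8: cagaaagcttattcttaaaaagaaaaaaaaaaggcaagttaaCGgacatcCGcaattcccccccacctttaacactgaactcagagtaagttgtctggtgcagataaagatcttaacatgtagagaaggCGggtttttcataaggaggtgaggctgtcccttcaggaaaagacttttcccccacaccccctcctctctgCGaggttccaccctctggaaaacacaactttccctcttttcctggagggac

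In windows of 1000 bases centred on the gene start in the mm9 annotation, the 59 genes with a single locus held a median of 66 CG, with quartiles of 50 and 85. The 51 genes with at least 40 CG made up 86.4% of them. The same window held a median of 65 CG in genes raised in all 3 lines, of which 73.5% reached 40, and of 69.5 CG in the genes raised in EZHIP cells only, of which 80.8% did. It held 55 CG in all listed genes, of which 65.4% reached 40, 41 CG in the genes lowered by EZHIP, and 40 CG in all 22090 protein-coding genes with a single locus, of which 50.7% reached 40. The median was thus close in the 3 classes of raised genes, and no class was tested against another. At the ends of the range in the 59 genes were *Sall3* with 138 CG and *Eya2* with 18 CG.

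**Figure D1:**
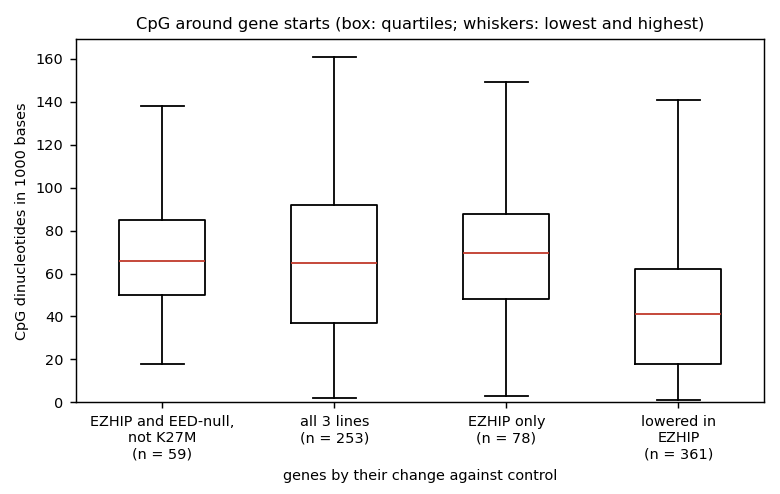
Number of CG dinucleotides (vertical axis) in 1000 bases centred on the annotated gene start on mm9, for 4 classes of genes (horizontal axis). Boxes give the quartiles, red lines the medians and whiskers the lowest and highest gene; the medians are 66, 65, 69.5 and 41.

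Expression is given as the deposited normalized value, which is the estimated number of reads of a gene divided by 1 size factor per library and is not scaled by gene length. The libraries held between 209390 and 424561 estimated reads on the listed genes, and the median of the 60 genes lay between 56.5 and 248 reads per library. Between libraries of the same group the values differed by more than sampling noise, with a chi-square per gene from 1.58 in control to 4.87 in K27M. Over the 60 genes the median log2(value + 1) was 5.88 in both control libraries, 7.45 and 7.27 in EZHIP, 7.86 and 7.91 in EED-null, and 5.99 and 5.88 in K27M. Of 12 fibroblast markers only *Col3a1* and *Dcn* are in the table, and their summed level was 17625 to 18030 in control libraries against 5398 to 6926 in the other 6 libraries. Of the markers of other cell types, *Kdr*, *Epcam*, *Krt14* and *Mbp* were listed. *Mbp*, 1 of 7 neural and glial markers, was at 9.24 to 15.6 in control, 26.0 to 53.6 in EZHIP, 89.2 to 94.3 in EED-null and 505 to 625 in K27M libraries. The endothelial *Kdr*, 1 of 6, was at 9.24 to 9.6, 51.3 to 52.1, 10.7 to 11.1 and 157 to 222, and the sum of *Epcam* and *Krt14*, 2 of 6 epithelial markers, at 3.69 to 6.16, 36.5 to 59.2, 24.4 to 43.0 and 109 to 141 in the same order. No macrophage, skeletal muscle or primordial germ cell marker is listed, which says nothing of its level, since the table holds only genes that differ between EZHIP and control. None of the listed markers is among the 60 genes, and the part of other cell types in the results was not tested. Fewer cells of a type and less RNA per cell cannot be told apart in these samples.

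In all 60 genes both EZHIP libraries and both EED-null libraries lay above both control libraries, which the limits favour. The same held for 56.6% and 53.7% of all listed genes. In 59 of the 60 genes all 4 of these libraries also lay above both K27M libraries, against 29.9% of all listed genes, and this too is largely set by the limits. The exception was *Rpl22l1*, at 155 and 256 in EZHIP, 171 and 242 in EED-null, and 160 and 111 in K27M libraries, and its reads can be shared with near-identical pseudogenes. Against control, the median difference on the log2(mean + 1) scale was 1.98 in EZHIP cells, 2.01 in EED-null cells and 0.17 in K27M cells. In the genes raised in all 3 lines the medians were 2.73, 3.29 and 3.03.

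**Figure D2:**
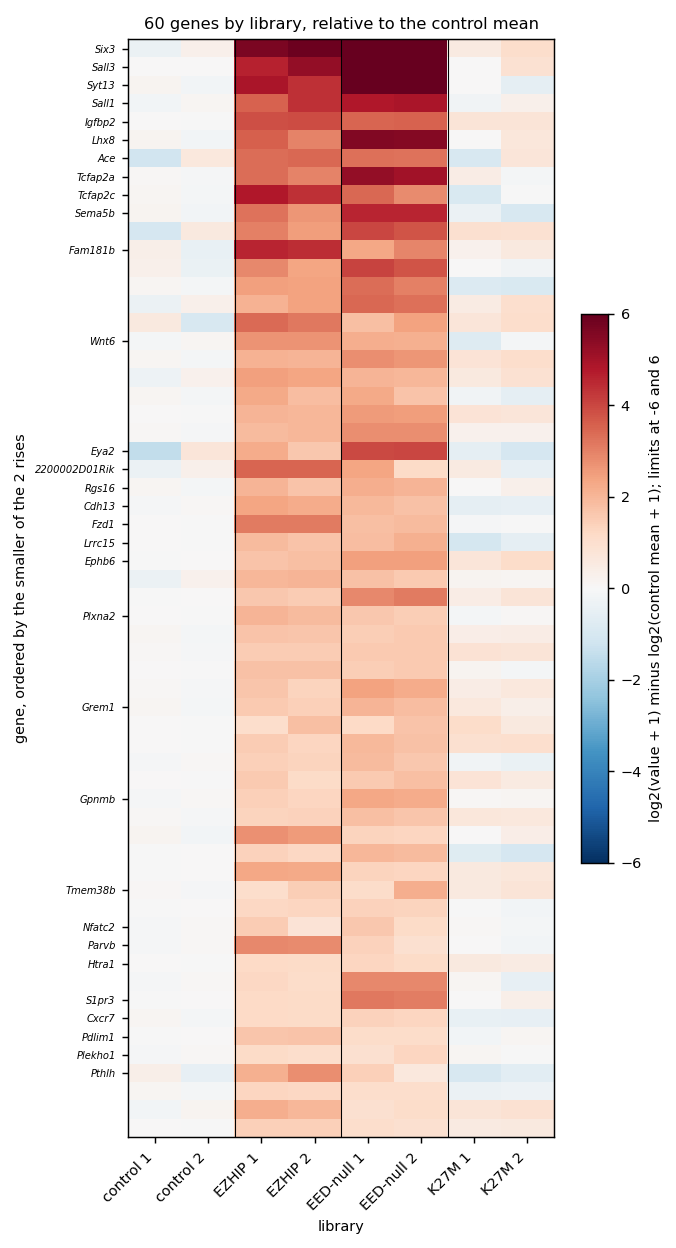
Level of each of the 60 genes (rows, ordered by the smaller of the rises in EZHIP and EED-null cells) in each of the 8 libraries (columns), as log2(value + 1) minus the log2 of the control mean plus 1. Red is above and blue below control, with the colour scale ending at -6 and 6, and gene names are given for 31 of the rows. EZHIP and EED-null columns are red throughout, and K27M columns lie near control.

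Genes near the limits show how much the choice rests on them. Just inside were *Plekho1*, *Cxcr7* and *S1pr3* with differences of 1.10, 1.17 and 1.18 in EZHIP cells, *Zeb1* and *Ctxn1* with 1.0 and 1.06 in EED-null cells, and *Fbxo2*, *Ptprn* and *Rnf43* with 1.0, 0.93 and 0.92 in K27M cells. Just outside were *Arrdc3* with 0.999 in EZHIP cells, *Lmcd1*, *Ets2* and *Cyr61* with 0.97, 0.97 and 0.96 in EED-null cells, and *Dnahc5*, *Rdh10* and *Nme4* with 1.03, 1.04 and 1.05 in K27M cells. Below the limit for EZHIP the table has a gap, because the authors listed only genes that differ at least 2-fold there, and the next nearest were *Daam2* at -1.01 and *Cpxm1* at -1.24. At the lower limit for K27M, *2610109H07Rik*, *Ank* and *Pthlh* lay inside at -0.87, -0.84 and -0.78, and *Mamdc2*, *Ltbp1* and *Prdm6* outside at -1.01, -1.05 and -1.10. After the libraries were rescaled on the listed genes, which lowered the difference from control by a median of 0.31 over all genes in EZHIP, 0.39 in EED-null and 0.45 in K27M cells, 63 genes met the same limits, and 40 of them were among the 60.

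Of the 10 genes whose smaller rise was largest, 6 encode transcription factors that direct embryonic development. This order uses the same values that chose the genes. The list of developmental transcription factors had 44 of the 875 genes in the table. Among the 60 were 9 of them, namely *Six3*, *Sall3*, *Sall1*, *Lhx8*, *Tcfap2a*, *Tcfap2c*, *Sox9*, *Tcf7* and *Zeb1*. That is 20.5% of the list, against 6.86% of all listed genes, and the share was not tested. *Sox2*, *Otx2* and *Nkx6-1* are on the list but were left out of the 60 by name. The list was made from name prefixes and also took *Islr* and *Islr2*, which are not transcription factors. By the size of the difference alone, 19 of the 44 (43.2%) were at least 2-fold higher than control in all 3 lines and 5 (11.4%) at least 2-fold lower in all 3, against 29.4% and 11.3% of all listed genes. Between EED-null and EZHIP cells, limma called 21 of the 44 higher and 4 lower in EED-null, against 25.1% and 19.8% of all listed genes. A call here needs a Benjamini-Hochberg adjusted p of less than 0.05 together with a change of 2-fold or more.

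*Six3* (ENSMUSG00000038805.7, mm9 chromosome 17, 86012948 to 86031153), a homeobox factor of the forebrain and eye, was at 1.03 and 2.21 in control and at 2.78 and 4.37 in K27M libraries. It reached 133 and 152 in EZHIP and 360 and 371 in EED-null libraries. The control and K27M libraries together were thus far below the other 4, which is largely set by the limits. The 4 raised libraries formed separate pairs.

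*Sall3* and *Sall1* encode zinc finger factors of limb, kidney and nervous system development. *Sall3* was listed at 0 in both control libraries and at 0 and 0.874, the worth of 1 read, in K27M. It was at 23.7 and 37.6 in EZHIP and at 225 and 248 in EED-null libraries. Against a limit of 3 reads over both control libraries this is at least 23.9-fold higher in EZHIP and at least 185-fold higher in EED-null cells. *Sall1* had 3 reads in control cells and 3 in K27M cells. It was at 24.9 and 45.6 in EZHIP and 62.4 and 66.9 in EED-null libraries.

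*Lhx8*, a LIM homeobox factor of the basal forebrain and teeth, was at 2.05 and 1.48 in control, 1.85 and 3.5 in K27M, 32.0 and 20.5 in EZHIP, and 129 and 125 in EED-null libraries. *Tcfap2a* and *Tcfap2c*, now named *Tfap2a* and *Tfap2c*, encode the AP-2 factors of neural crest, epidermis and trophoblast. *Tcfap2a* was at 4.11 and 3.69 in control, 5.56 and 3.5 in K27M, 49.7 and 37.6 in EZHIP, and 187 and 160 in EED-null libraries. *Tcfap2c* had the reverse order of the raised lines, with 52.1 and 38.8 in EZHIP and 19.4 and 12.6 in EED-null libraries. It had 2 reads over both control libraries and 1 read in K27M cells.

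The other 3 factors were already expressed in control cells, and were described after their values were seen, although *Zeb1* was also named as nearest a limit. *Sox9*, the factor of cartilage and of several epithelial and neural progenitors, was at 18.5 and 28.8 in control and 26.9 and 25.4 in K27M libraries, which overlap. It was at 95.9 and 100.3 in EZHIP and at 83.2 and 71.7 in EED-null libraries. *Zeb1*, a repressor of epithelial genes, was at 509 and 486 in control, 721 and 749 in K27M, 1347 and 1338 in EZHIP, and 1036 and 964 in EED-null libraries. Its K27M libraries as deposited were thus between control and the raised lines without overlap on either side.

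**Figure D3:**
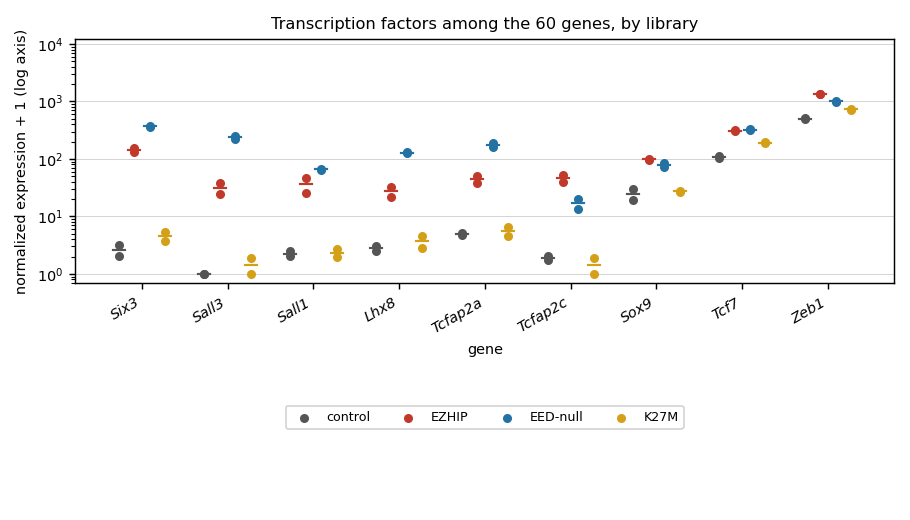
Normalized expression plus 1 (vertical log axis) of the 9 developmental transcription factors among the 60 genes (horizontal axis). Points are the 2 libraries of each group and short lines their mean; for *Six3*, *Sall3*, *Sall1*, *Lhx8* and both AP-2 genes the control and K27M points lie under 10 and those of EZHIP and EED-null above 10.

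A further set belongs to Wnt signalling, in which a secreted, lipid-modified Wnt protein binds a Frizzled receptor and leads to gene activation by TCF and LEF factors. This set was put together after the values had been seen, and is given as a description. Of its genes among the 60, the rule for named genes gave *Wnt6* and *Fzd1*. It gave *Rnf43* and *2610109H07Rik* only as genes nearest a limit, and the others not at all. Of 25 Wnt pathway genes in the table, 7 were among the 60. *Axin2*, *Lef1*, *Nkd2*, *Notum*, *Sfrp1*, *Rspo1*, *Wnt10a* and *Prickle1* were at least 2-fold higher in all 3 lines. *Rspo2*, *Rspo3* and *Fzd8* were at least 2-fold lower in all 3 lines, and the other 7 genes, *Daam2*, *Dkk3*, *Fzd4*, *Fzd7*, *Prickle2*, *Wnt4* and *Wnt5a*, fell in none of these classes. Genes of the list thus lay on both sides of control, as did those of the whole table. Those higher and those lower in all 3 lines were 32% and 12% of the 25, against 29.4% and 11.3% of all listed genes. These shares are close, and nothing particular to the pathway is read from them. Among the 60 were 28% of the 25, against 6.86% of all listed genes. That share was not tested, because the list was made after the values were seen.

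Of the genes for sending and receiving the signal, *Wnt6* (mm9 chromosome 1, 74818466 to 74831893), a ligand, was at 47.2 and 56.8 in control cells, reached 344 and 340 in EZHIP, and was at 237 and 231 in EED-null libraries. With 29.7 and 47.2 its K27M libraries did not exceed those of control. The higher of them, at 47.2071, almost equalled the lower control library, at 47.2215. *Porcn*, the enzyme that attaches the lipid to Wnt proteins, was at 14.4 and 21.4 in control, 26.9 and 34.1 in K27M, 103 and 95.8 in EZHIP, and 77.6 and 73.6 in EED-null libraries. *Fzd1* (mm9 chromosome 5, 4753842 to 4758216), a Frizzled receptor, was among the 4 genes of the group highest in control, at 776 and 750. It reached 6694 and 6685 in EZHIP and 2678 and 2818 in EED-null libraries, and was at 722 and 757 in K27M libraries, which overlap control.

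Of the genes that dampen the pathway, *Rnf43*, a ubiquitin ligase that removes Frizzled receptors from the cell surface, was at 17.5 and 14.8 in control, 28.8 and 34.1 in K27M, 71.0 and 69.5 in EZHIP, and 118 and 106 in EED-null libraries. *2610109H07Rik*, now named *Draxin*, encodes a secreted axon guidance protein that also antagonizes Wnt signalling. It was at 8.21 and 6.67 in control and lower, at 3.71 and 3.5, in K27M libraries, against 46.2 and 43.3 in EZHIP and 84.6 and 66.9 in EED-null. *Dact1*, an intracellular modulator of the pathway, was at 107 and 117 in control, 96.5 and 84.8 in K27M, 299 and 284 in EZHIP, and 417 and 344 in EED-null libraries. *Tcf7* is not counted with them and encodes a TCF factor, the class through which the pathway activates genes. It was at 111 and 103 in control, 197 and 186 in K27M, 314 and 305 in EZHIP, and 320 and 325 in EED-null libraries. In all 4 genes the raised lines lay clear of both other groups, which is largely set by the limits.

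The wider list of growth factor ligands, receptors and inhibitors had 39 genes in the table, of which *Igfbp2*, *Wnt6*, *Fzd1* and *Grem1* were among the 60. By size alone, 14 of the 39 (35.9%) were at least 2-fold higher than control in all 3 lines and 5 (12.8%) at least 2-fold lower, against 29.4% and 11.3% of all listed genes. limma called 7 of the 39 higher and 12 lower in EED-null than in EZHIP cells, against 25.1% and 19.8%. *Igfbp2* (mm9 chromosome 1, 72871077 to 72899048) encodes a protein that binds insulin-like growth factors. It was at 356 and 342 in control, against 5184 and 5225 in EZHIP and 3891 and 4088 in EED-null libraries, with 588 and 594 in K27M. *Grem1*, a secreted inhibitor of BMPs, was at 124 and 107 in control, 182 and 149 in K27M, 341 and 316 in EZHIP, and 480 and 426 in EED-null libraries.

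**Figure D4:**
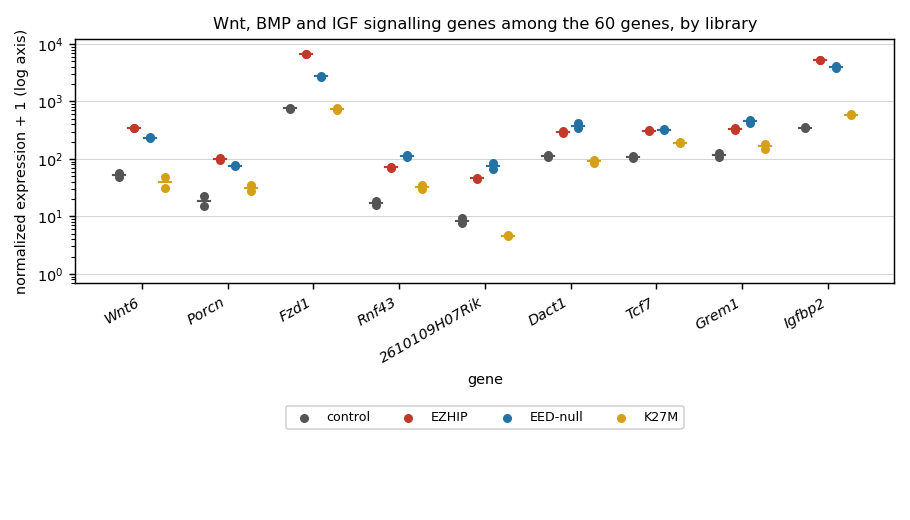
Normalized expression plus 1 (vertical log axis) of Wnt, BMP and IGF signalling genes among the 60 genes (horizontal axis). Points are the 2 libraries of each group and short lines their mean. On the deposited scaling, K27M points of *2610109H07Rik* and *Dact1* lie below those of control, and the upper K27M point of *Wnt6* almost meets the lower control point. K27M points of *Fzd1* overlap control at 722 to 776 on that scaling.

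*Syt13*, a synaptotagmin of membrane traffic, was at 2.05 and 1.48 in control and 1.85 and 0.874 in K27M libraries, and at 80.5 and 55.9 in EZHIP and 211 and 255 in EED-null. Of 16 axon guidance genes in the table, *Sema5b*, *Ephb6* and *Plxna2* were among the 60. By size alone, 4 (25%) were at least 2-fold higher and 6 (37.5%) at least 2-fold lower than control in all 3 lines. Of all listed genes 29.4% and 11.3% were. limma called 2 of the 16 higher and 1 lower in EED-null than in EZHIP cells, where the shares of all listed genes were 25.1% and 19.8%. The semaphorin gene *Sema5b* was at 3.08 and 2.21 in control, 1.85 and 0.874 in K27M, 34.3 and 21.7 in EZHIP, and 84.6 and 84.3 in EED-null libraries. The semaphorin receptor gene *Plxna2* was at 330 and 313 in control and 301 and 341 in K27M, so that these overlapped, and at 1307 and 1182 in EZHIP and 990 and 887 in EED-null. *Ephb6*, an Eph receptor without kinase activity, was at 74.9 and 77.5 in control, 125 and 165 in K27M, 256 and 270 in EZHIP, and 421 and 421 in EED-null libraries.

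A further set of the named genes encodes enzymes, receptors, adhesion and cytoskeletal proteins. *Ace*, angiotensin-converting enzyme, was at 93.5 and 98.0 in EZHIP and 90.1 and 87.2 in EED-null, but its libraries at low level spread widely, with 3.08 and 13.3 in control and 3.71 and 14.0 in K27M. *Cdh13*, a cadherin anchored in the membrane by a lipid, was at 61.6 and 67.9 in control, lower at 43.6 and 46.3 in K27M, and at 337 and 303 in EZHIP and 252 and 219 in EED-null. *Lrrc15*, which the list of adhesion molecules took by its prefix, was at 26.7 and 25.1 in control, 12.1 and 17.5 in K27M, 99.4 and 87.8 in EZHIP, and 97.0 and 118 in EED-null. *Rgs16*, a brake on G-protein signalling, was at 39.0 and 33.2 in control, 37.1 and 44.6 in K27M, 149 and 119 in EZHIP, and 166 and 151 in EED-null. *Cxcr7*, now *Ackr3*, a scavenging receptor for the chemokine CXCL12, was at 147 and 122 in control, 98.3 and 96.2 in K27M, 305 and 303 in EZHIP, and 351 and 328 in EED-null. *Pdlim1*, an actin-associated protein, was at 218 and 224 in control and 195 and 239 in K27M against 697 and 716 in EZHIP and 480 and 478 in EED-null.

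Besides *Fzd1*, the genes highest in control were *Tmem38b*, an intracellular cation channel, *Gpnmb*, a membrane glycoprotein of lysosomes and melanosomes, and *Htra1*, a secreted serine protease that the list of G-protein-coupled receptors took by its prefix alone. *Gpnmb* was at 773 and 828 in control, 839 and 875 in K27M, 2153 and 1979 in EZHIP, and 4029 and 3718 in EED-null. *Htra1* was at 685 and 664 in control, 1027 and 939 in K27M, 1568 and 1492 in EZHIP, and 1651 and 1479 in EED-null. *Tmem38b* was at 1248 and 1150 in control and 1828 and 2024 in K27M and 2519 and 3356 in EZHIP, while its EED-null libraries were 2596 and 5484, more than 2-fold apart.

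The other lists were also made from name prefixes, so that the cytoskeletal one took the kinase *Map3k5* and the metabolic one took *Fmod* and *Crabp1*, which are not enzymes. Among the 60 were *Cxcr7*, 1 of 11 cytokine and chemokine genes in the table, and *Pdlim1*, 1 of 13 genes of the cytoskeletal list. *Rgs16*, *Htra1* and *S1pr3* were 3 of 12 taken as G-protein-coupled receptors and regulators. *Cdh13* and *Lrrc15* were 2 of 26 adhesion genes. None of 17 genes of the metabolic list, 25 interferon response genes and 5 imprinted genes in the table was among the 60. The same held for 4 cell cycle regulators, 4 Zfp genes, 1 Polycomb subunit and 1 germline gene. The 60 made up 6.86% of all listed genes, and nothing particular to a list is read from these counts.

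Within 2-fold of control, K27M cells were not uniform. The difference from control ranged from -0.87 to 1.0 and was above 0 in 38 genes and below 0 in 22, with 30 genes within 0.5 of control. Both K27M libraries lay above both control libraries in 26 genes, or 43.3%, against 57.4% of all listed genes. They lay below both in 12 genes, or 20%, against 33.7%. Rescaled on the listed genes, K27M was above control in 25 and below it in 35 genes, with no overlap in 13 and 26, so the side of control on which K27M fell depended on the scaling. The listed genes were chosen for a change in EZHIP cells, so this rescaling cannot show which scaling is right. Nearest to control by the group means were *Plxna2*, *Nfatc2*, *Pdlim1*, *Fzd1* and *Plekho1*. *Nfatc2*, a transcription factor activated by calcium, was at 41.1 and 45.8 in control and 46.4 and 40.2 in K27M, and *Plekho1*, an adaptor at the membrane, at 122 and 131 in control and 136 and 125 in K27M. Among the 26 were *Igfbp2*, *Tcf7*, *Rnf43* and *Ephb6* with differences of 0.76, 0.83, 0.92 and 0.92. Among the 12 were *2610109H07Rik*, *Ank*, *Lrrc15*, *Sema5b*, *Cdh13* and *Wnt6* with -0.87, -0.84, -0.77, -0.63, -0.52 and -0.43. For *Wnt6* the lack of overlap rests on 47.2071 in a K27M library and 47.2215 in a control library.

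By their level in control, with limits of 3 and 5.5 on the log2(mean + 1) scale, 14 of the 60 genes were silent (at most 3), 14 lowly expressed and 32 (53.3%) above both limits. Of the genes raised in all 3 lines 45.1% were silent and 23.7% above both limits, and of all listed genes 16.8% and 63.7%. In the 14 silent genes the median difference from control was 3.40 in EZHIP, 4.26 in EED-null and 0.08 in K27M cells. In the 116 silent genes raised in all 3 lines it was 4.59, 4.67 and 4.12. In the 32 genes above both limits the medians were 1.49, 1.75 and 0.34.

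The question left partly free by the choice of genes is whether inhibition by EZHIP and deletion of EED raised them to the same level. The limits put the same lower bound on both lines and no direct bound on the difference between them. That difference was tested with limma and Benjamini-Hochberg adjustment over all 875 genes. The lower bound still restricts the calls. A gene could be called lower in EED-null cells only when its rise in EZHIP cells was well above the limit. A call of higher likewise needed such a rise in EED-null cells. The median rises of the 60 were 1.98 in EZHIP and 2.01 in EED-null cells, so many could hardly be called in a given direction. The median log2 difference of EED-null from EZHIP was 0.19 over the 60 genes and 0.15 over all listed genes. limma called 12 of the 60 (20%) higher in EED-null than in EZHIP cells, against 25.1% of all listed genes, and 8 (13.3%) lower, against 19.8%. Both shares were below those of the whole table, where genes did not have to be raised in both lines. Nothing particular to the 60 is read from these shares. The other 40 were not called, which does not show that the lines were equal in them, and in 7 of the 60 genes the libraries of the 2 lines overlapped. That overlap was not counted over all listed genes, so nothing particular to the 60 is read from it. With 2 libraries a line, the smallest p an exact permutation test allows is 0.333, and the calls therefore draw on limma's pooling of the spread over genes.

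The genes higher in EED-null cells were *Sall3*, *Lhx8*, *Eya2*, *Tcfap2a*, *S1pr3*, *Syt13*, *Rragd*, *Sema5b*, *Thsd7a*, *Six3*, *Hs3st3b1* and *Lancl3*. The log2 difference was 2.94 for *Sall3* (standard error 0.34, adjusted p = 0.000538 from limma) and 2.26 for *Lhx8* (standard error 0.29, adjusted p = 0.000805). It was 1.98 for *Tcfap2a* (standard error 0.23, adjusted p = 0.000539) and 1.36 for *Six3* (standard error 0.26, adjusted p = 0.00455). Each of these was higher in 2 of 2 EED-null libraries than in both EZHIP libraries. *S1pr3*, a receptor for the lipid sphingosine 1-phosphate, was close to the limit in EZHIP cells and far above it in EED-null cells. It was at 152 and 159 in control, 160 and 199 in K27M, 355 and 351 in EZHIP, and 1389 and 1308 in EED-null libraries, and its difference of 1.93 had an adjusted p of 9.64e-05. *Rragd*, a GTPase that relays amino acid levels to mTORC1 at the lysosome, was at 59.5 and 65.0 in control, 66.8 and 44.6 in K27M, 148 and 137 in EZHIP, and 471 and 464 in EED-null libraries. *Eya2*, a transcriptional coactivator of the eyes absent family, was at 1.03 and 8.12 in control, 2.78 and 1.75 in K27M, 24.9 and 16 in EZHIP and 84.6 and 88.1 in EED-null libraries. Its difference of 2.06 (adjusted p = 0.0340) was no longer called when any single EZHIP, EED-null or K27M library was left out (adjusted p from 0.0581 to 0.137), or with the replicate block (adjusted p = 0.0503).

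Among the 8 genes lower in EED-null cells were *Fam181b*, *2200002D01Rik*, *Parvb*, *Tcfap2c*, *Pthlh* and *Fzd1*. *Fam181b* was at 55.6 and 51.3 in EZHIP and 11.1 and 17.4 in EED-null libraries, a log2 difference of -1.87 (standard error 0.32, adjusted p = 0.00294 from limma), with 3 reads in control cells. *Parvb*, an actin-binding protein of focal adhesions, was at 12.3 and 13.3 in control, 13.0 and 11.4 in K27M, 101 and 96.9 in EZHIP, and 34.7 and 26.2 in EED-null libraries. Its difference was -1.68 (standard error 0.16, adjusted p = 0.000244). *Fzd1* differed by -1.28 (standard error 0.09, adjusted p = 0.000119). *Tcfap2c*, *2200002D01Rik* and *Pthlh*, the gene for a hormone related to parathyroid hormone, had differences of -1.46, -1.73 and -1.44 at low read numbers. Without EED-null replicate 2 their adjusted p-values from limma were 0.0593, 0.101 and 0.101. *Tcfap2c* and *2200002D01Rik* were also lost without EZHIP replicate 1 (0.0585 and 0.0757), and *2200002D01Rik* and *Pthlh* without EZHIP replicate 2 (0.0751 and 0.0985). The number of genes called lower was 5 in place of 8 without EED-null replicate 2, and also 5 without EZHIP replicate 1.

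By level in control, 8 of the 14 silent genes were called higher and 4 lower in EED-null than in EZHIP cells, with a median log2 difference of 1.31. Over the 147 silent genes of the whole list, 42 were called higher and 33 lower, with a median of 0.46. Of the 14 lowly expressed genes 2 were called higher and 2 lower, beside 55 and 38 of the 171 in the whole list. Of the 32 genes above both limits 2 were called higher and 2 lower, beside 123 and 102 of 557, and the median of the 32 was 0.08. Because both lines had to be raised, genes with small rises in both could hardly be called. The median rises in EZHIP and EED-null cells were 3.40 and 4.26 in the silent genes. They were 1.49 and 1.75 in the 32 genes. The whole list carries no such joint bound, so nothing is read from the order of the classes or from their shares.

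**Figure D5:**
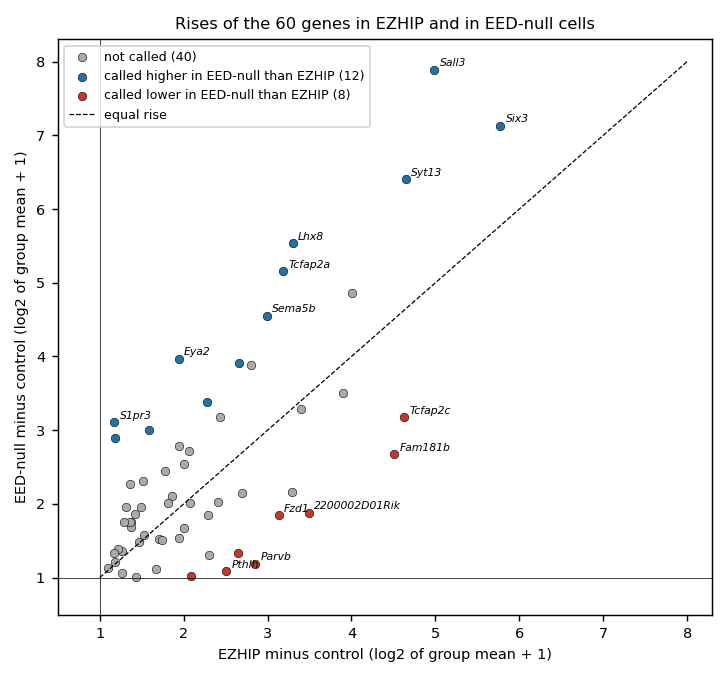
Difference from control in EZHIP cells (horizontal axis) and in EED-null cells (vertical axis) for the 60 genes, as log2 of the group mean plus 1, with the lower limit of 1 drawn on both axes and a dashed line where both rises are equal. Blue points are the 12 genes limma called higher and red points the 8 called lower in EED-null than in EZHIP cells, and grey points are the other 40; names are given for a part of the called genes.

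The genes did not share a region. In the mm9 annotation 59 of the 60 had a single locus, on 19 of 20 chromosomes, with at most 6 on any of them, and 58 were protein coding. The closest pair was *2610109H07Rik* and *Fbxo2* on chromosome 4, 29923 bp apart, followed by *Wnt6* and *Ptprn* on chromosome 1, 411723 bp apart. *Fbxo2*, a subunit of a ubiquitin ligase that binds glycoproteins, was at 62.7 and 59.0 in control, 120 and 125 in K27M, 179 and 152 in EZHIP, and 237 and 211 in EED-null libraries. The pair was thus higher in both EZHIP and EED-null cells, and lay on opposite sides of control in K27M cells.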

How the data were processed

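Libraries were made from rRNA-depleted total RNA of MEFs. The deposited signal is a normalized value per gene and library. The authors estimated reads with RSEM 1.2.4, per the labels, on an mm9 transcriptome, scaled them by 1 factor per library, as the steps between low values show, and listed the genes that EBSeq found to differ 2-fold or more in EZHIP cells; RNA of another cell type was spiked in, and how it entered the scaling is not given in the sources used here. Values are not scaled by gene length, and the strand is not stated to be used, so antisense or overlapping genes cannot be separated. Between 73.9% and 83.9% of values in a library were whole reads within 0.01, so no count model was fitted. Limits of 3 reads cover counting error only.

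All 8 columns were used. limma 3.58.1 (R 4.3.3) fitted 1 mean for each group on log2(value + 1), all 8 libraries together, and was checked on simulated data. No filter on low values was applied, and all 60 genes had a mean of at least 5 over the libraries. The log2(value + 1) scale understates changes of low genes. Python 3.11.15 and pandas 2.3.3 served for the rest. RefSeq starts matched 46 of the 60 genes; 4 are printed. CG content was first counted in 300 bases around these starts, which covers under 80% of the 60 genes and is void, so the 1000-base mm9 window was used; this window and the limit of 40 CG were set after the data had been seen. Alternatives were another pseudocount, filter, scaling or fit, other limits, and each library left out.

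Named genes are the 10 with the largest smaller rise, the 5 with K27M nearest control, the 4 highest in control, the 5 largest called differences in each direction between EED-null and EZHIP, those nearest each limit, and up to 4 per gene list. Counted without the part for genes nearest a limit, this names 31 of the 60. Further genes were named for lying nearest a limit, and others after their values were seen. A few genes of the group are not reported here by name. The genes and lists were chosen with earlier results of these data known.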

Additional observations from a re-analysis of the deposited data

How the results depend on the processing

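Counting genes by the adjusted p-value alone gave 25 genes higher and 14 lower in EED-null than in EZHIP cells in place of 12 and 8. The share of all listed genes was not counted by this criterion, so these numbers show only that the count depends on the 2-fold limit. With each library left out in turn, the numbers were 9 to 13 higher and 5 to 9 lower, and the median log2 difference was 0.13 to 0.23; a group left with 1 library was assumed to vary like the others. Rises of at least 1.5 with K27M within 0.5 of control left 18 of the 60 genes. With a pseudocount of 5 in the limits 78 genes met them, 57 of them among the 60, with a pseudocount of 0.1 it was 55 genes and 54 shared, and with each library left out 58 to 67 genes. Of the 20 genes lost by rescaling, 17 fell under a limit for EZHIP or EED-null and 5 left that for K27M. A pseudocount of 0.1 kept 17 of the 20 calls between EED-null and EZHIP and lost *Tcfap2c*, *Eya2* and *2200002D01Rik* (adjusted p = 0.241, 0.0911 and 0.0637 from limma). Rescaling, a pseudocount of 5, the fit of only the 2 groups and a trend on expression kept all 20. The replicate numbers mark no stated pairing, and same-numbered deviations of EZHIP and EED-null correlated with r = 0.105 over all genes. A replicate block gave 11 genes higher and 8 lower with a median of 0.19, and 19 of the 20 calls were shared. Leaving out a library kept 15 or 16 of the 20 calls when it was an EZHIP or EED-null library, 19 for K27M and 20 for control. Of the genes with the 5 largest called differences in each direction none changed sign under these alternatives. The cause of these changes was not tested. Genes outside the list, which would set the scaling, were not analysed here.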
